A study of Mus musculus with 19 samples.

Results

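The liver takes up glucose after a meal, breaks it down to pyruvate or stores it as glycogen, and between meals makes and releases glucose. Glycolysis and gluconeogenesis share most of their enzymes, and they differ at a few steps that are run by separate enzymes in each direction, among them pyruvate kinase (Pklr) against phosphoenolpyruvate carboxykinase (Pck1) and phosphofructokinase (Pfkl) against fructose bisphosphatase (Fbp1). Glucose 6-phosphatase (G6pc) releases free glucose at the end of both gluconeogenesis and glycogen breakdown.

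The 31 genes described here encode enzymes, transporters and regulatory proteins of glycolysis, gluconeogenesis, pyruvate use and glycogen metabolism in liver. They were chosen by name for their function, with earlier results of these data known. All 31 were found among the 24054 genes in the expression table. The liver RNA-seq used here is from 6 mice carrying Raly flox/flox alleles, in which LoxP sites flank exons of Raly. This is the gene of an RNA-binding protein of the hnRNP family. The study's figure legend gives 4 mice per group for its RNA-seq, while the expression table holds 3 per group. The 3 L-RalyKO mice had received AAV8.TBG.Cre, an adeno-associated virus that expresses Cre recombinase from the hepatocyte-specific TBG promoter, and the 3 controls had received AAV8.TBG.GFP, both 4 weeks before the livers were taken. Controls are named wild type in the labels, although they carry the floxed alleles and a virus too. All mice were of the C57BL/6 background and on chow diet, and male unless otherwise specified. Their ages and the hour of collection are not given in the sources used here. The study mentions fasting for a qPCR measurement in chow-fed livers of this model, but does not state it for the sequenced ones, and the TBG promoter limits Cre to hepatocytes, so that other liver cells are not targeted in this model. The comparison of the groups asks what loss of Raly in hepatocytes does to these transcripts.

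Values are reads per gene after scaling for sequencing depth (CPM), and libraries held between 28302983 and 38052705 reads. Raly itself measured 50.1, 48.6 and 46.8 in controls and 6.34, 6.61 and 7.39 in L-RalyKO mice, a log2 fold change of -2.67 ± 0.07 (SE). The livers carried the defining hepatocyte transcripts at a summed level of 93686 to 103303 in controls and 104761 to 106089 in L-RalyKO mice. These sums did not overlap, and most of each was Alb, whose own values overlapped between the groups. Of the 9 hepatocyte markers tested, 8 had an estimate above 0, and the median log2 fold change was 0.14. For 6 of the 9 the groups did not overlap, compared with 28.1% of all genes tested. Apoa2 was lower in L-RalyKO mice and the others of these 6 were higher. Control 1 stood apart from the other controls: chi-square per degree of freedom was 71.1 and 84.3 in its comparisons with them and between 12.6 and 27.4 for the other pairs of mice within a group. It also held the adipocyte transcripts Lep (0.209) and Retn (0.149), which were at 0 in the other 5 mice, and the highest Cidec (38.8 against at most 14.1). Lep and Retn rest on few reads there, as 1 read had a value of 0.0298. Plin1, another adipocyte transcript, was not highest in control 1 (0.0596 against 0.0701 in control 2). Results are also given without control 1, because it stood apart.

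Of the 31 genes, 8 passed the test (limma, Benjamini-Hochberg adjusted p under 0.05 over 11580 genes). Pck1 and Gys2, the liver glycogen synthase, were higher in L-RalyKO livers, while G6pc, Pklr, Khk, Gpi1, Pdk1 and Eno1 were lower. Among all genes tested 6.55% passed (758), 3.36% as higher and 3.19% as lower. The estimated log2 fold change was below 0 for 25 of the 31 genes and its median was -0.14, against 0.00 over all genes tested. In bulk liver a smaller number of cells of one type and less RNA per cell cannot be told apart, and the p-values measure only the spread between these mice. Without control 1, 4 of the 31 genes passed (Pck1, G6pc, Pklr and Gpi1), when 3.19% of all genes did, and the median was -0.10. Between 4 and 7 of the 31 passed when any single mouse was left out.

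In the L-RalyKO livers the values of 18 of the 31 genes did not overlap those of controls, compared with 28.1% of all genes tested. For 14 of these 18 genes the L-RalyKO mice were the lower group, a pattern held by 13.7% of all genes. They were Slc2a2, Gpi1, Pfkl, Gapdh, Pgk1, Eno1, Pklr, Pdha1, Pdhb, Pdk1, Pcx, G6pc, Pygl and Khk. The 4 with L-RalyKO mice above controls were Pck1, Pck2, Gys2 and Pfkfb1.

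**Figure D1:**
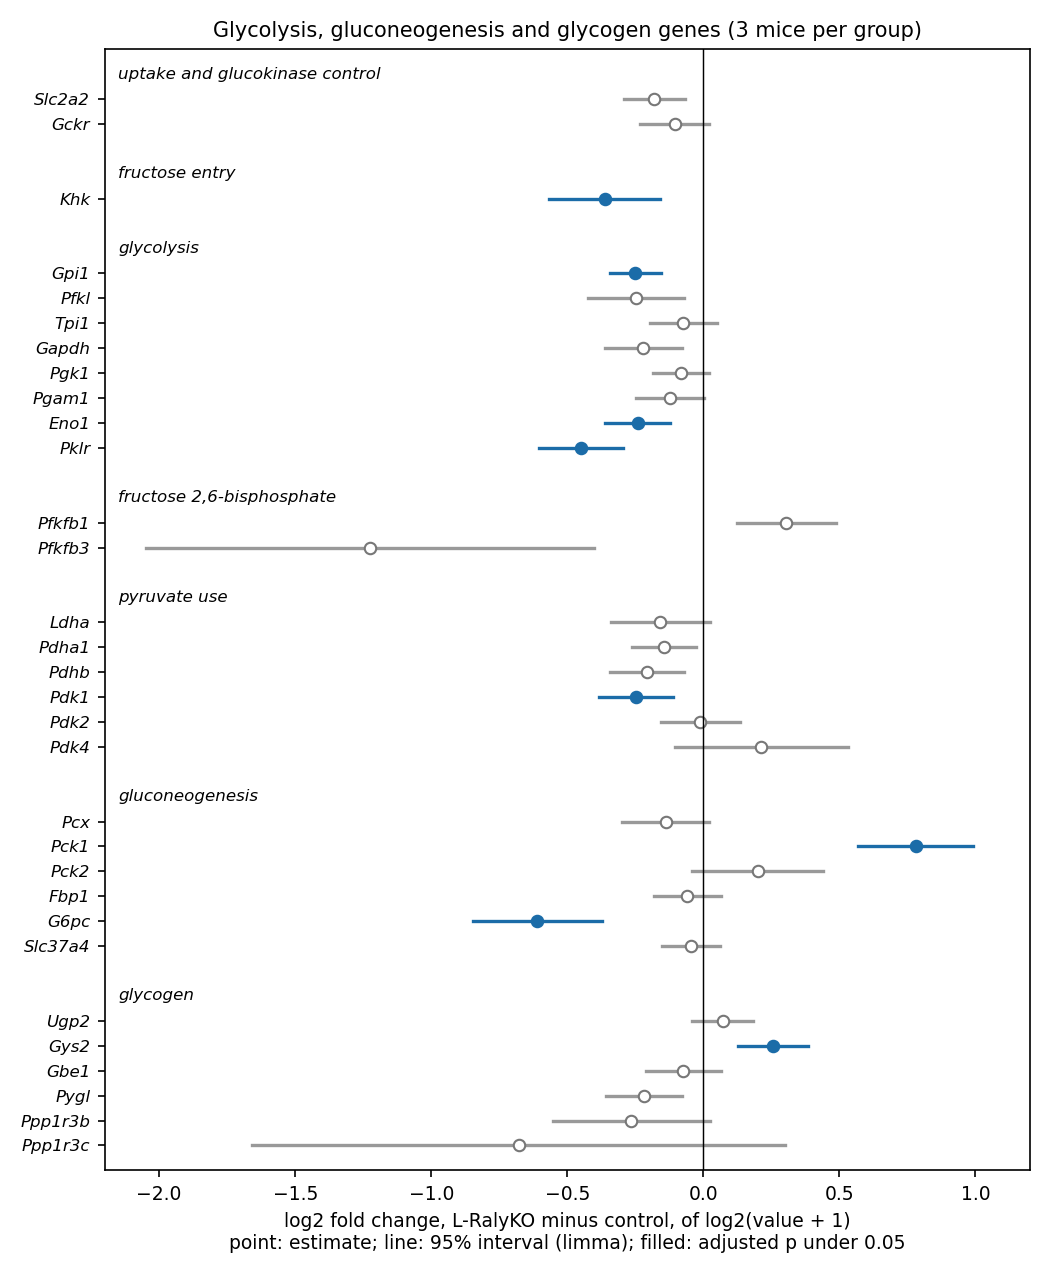
Log2 fold change (L-RalyKO minus control, of log2(value + 1)) of each of the 31 genes by role, with its 95% interval from limma, 3 mice per group. Filled points are the 8 genes that passed at an adjusted p under 0.05, with Pck1 at 0.78, G6pc at -0.61 and Pklr at -0.45, and open points are the other genes, of which Pfkfb3 and Ppp1r3c have the widest intervals.

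The DNA just before the transcription start is shown for Pck1, G6pc, Pklr, Eno1 and Khk, the genes among the 8 with a window in which one of the searched motifs was found there (RefSeq, build GRCm38.p6, + strand in each, 5′ to 3′, ending at the base before the start). Capitals mark ACGTCA, the core of the cyclic AMP response element bound by CREB, in Pck1 (chr2:173152923-173153072), CCAAT, the box bound by the factor NF-Y, or its reverse complement ATTGG, in G6pc (chr11:101367466-101367715), the downstream of the annotated Pklr starts (chr3:89136473-89136622) and a start of Eno1 (chr4:150237047-150237196), and the E-box CACGTG in Khk (chr5:30921409-30921558).
Pck1: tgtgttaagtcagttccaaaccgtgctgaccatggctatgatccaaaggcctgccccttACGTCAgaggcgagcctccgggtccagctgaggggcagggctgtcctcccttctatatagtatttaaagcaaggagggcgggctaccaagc
G6pc: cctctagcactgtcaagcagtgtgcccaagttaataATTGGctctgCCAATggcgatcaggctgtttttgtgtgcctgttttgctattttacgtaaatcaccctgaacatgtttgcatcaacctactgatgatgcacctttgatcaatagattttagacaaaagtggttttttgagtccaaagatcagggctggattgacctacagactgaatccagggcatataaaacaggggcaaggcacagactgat
Pklr: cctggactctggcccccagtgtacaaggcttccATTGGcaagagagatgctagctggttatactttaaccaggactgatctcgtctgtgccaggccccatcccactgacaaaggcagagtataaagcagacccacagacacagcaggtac
Eno1: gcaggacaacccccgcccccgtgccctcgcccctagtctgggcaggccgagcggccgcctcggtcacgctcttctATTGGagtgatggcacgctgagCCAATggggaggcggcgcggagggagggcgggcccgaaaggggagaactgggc
Khk: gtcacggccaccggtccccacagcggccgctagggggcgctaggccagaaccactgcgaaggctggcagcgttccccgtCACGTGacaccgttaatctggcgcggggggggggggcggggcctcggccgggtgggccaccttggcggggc

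The Pck1 element begins 91 bases before the start. In G6pc the reverse and forward CCAAT boxes begin 214 and 204 bases before the start, and in Eno1 75 and 53 bases before it. The Pklr box begins 117 bases and the Khk E-box 71 bases before the start. Windows of 300 bases (250 before and 50 after each start) were found for 29 of the 31 genes, 43 windows in all, and Gys2 and Ppp1r3b were not among them. CCAAT on either strand was in 44.2% of these windows and in 37.4% of the 32851 windows of all genes. ACGTCA on either strand was in 14.0% against 7.51%, and CACGTG, which reads the same on both strands, in 14.0% against 7.15%. TGTTTAC, a forkhead motif, and CAAAGTCCA, an HNF4A motif, were in none of the 43 windows on either strand and in 3.65% and 0.475% of all windows. Several windows of a gene overlap and share a match. A match describes letters in a window and does not show that a factor is bound there. Only these exact strings were searched, so a window without a match may still hold a variant of the site.

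Pck1 and G6pc, which encode an early and the last enzyme of gluconeogenesis, moved in opposite directions. Pck1 (ENSMUSG00000027513.5, chr2:172978549-172984774 on the + strand of NCBIM37, the mm9 build of the files) makes phosphoenolpyruvate from oxaloacetate. It measured 2993, 2937 and 3625 in controls and 5401, 5327 and 5616 in L-RalyKO mice. The lowest L-RalyKO value lay far above the highest control. The means were 3185 ± 382 and 5448 ± 150 (SD, n = 3 each), a difference of 71.0%, and the log2 fold change was 0.78 ± 0.09 (SE; limma adjusted p = 0.0031). It was also the most abundant of the 31 genes per length of exon, at 929 in controls and 1589 in L-RalyKO mice per kilobase.

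G6pc (ENSMUSG00000078650.2, chr11:101228875-101239217, + strand) measured 1061, 1017 and 893 in controls and 586, 610 and 756 in L-RalyKO mice. L-RalyKO mouse 3 was closest to the controls, and the groups did not overlap. The means of 990 ± 87.5 and 651 ± 92.1 (SD) differed by a log2 fold change of -0.61 ± 0.10 (SE; limma adjusted p = 0.0125), and expression fell by 34.3%. Slc37a4, which carries glucose 6-phosphate to the phosphatase inside the endoplasmic reticulum, had 271, 252 and 255 in controls and 251, 254 and 248 in L-RalyKO mice (log2 fold change -0.05, limma adjusted p = 0.612).

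The other genes of gluconeogenesis did not pass the test. Pcx, pyruvate carboxylase, which makes oxaloacetate in mitochondria, had 852, 756 and 741 in controls and 724, 740 and 668 in L-RalyKO mice (log2 fold change -0.14, limma adjusted p = 0.278). Without control 1 the Pcx estimate was -0.08. Fbp1 had 1071, 1015 and 991 in controls and 1008, 978 and 967 in L-RalyKO mice, and these ranges overlapped (log2 fold change -0.06, limma adjusted p = 0.569). Pck2, the mitochondrial form of the carboxykinase, was barely present at 1.34, 1.51 and 1.73 in controls and 1.98, 1.80 and 1.92 in L-RalyKO mice. Its groups did not overlap, but the change did not pass the test (log2 fold change 0.20, limma adjusted p = 0.304, and 0.31 with edgeR on the recovered reads). Per kilobase it reached 0.449 in controls against 929 for Pck1.

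**Figure D2:**
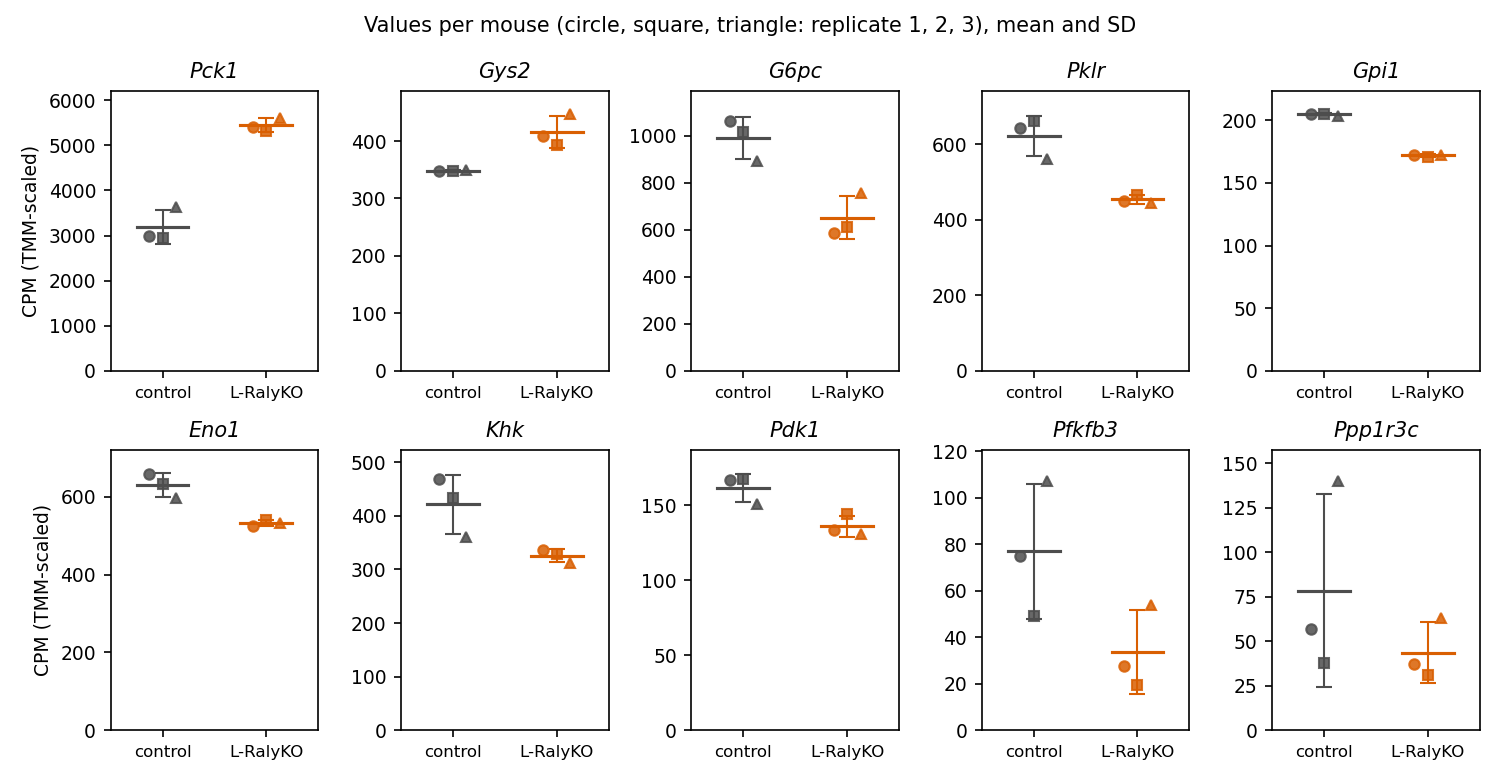
Value of 10 genes in each mouse, in CPM on axes that start at 0, with the mean and SD of the 3 mice per group. The 8 genes that passed the test do not overlap between groups, while Pfkfb3 and Ppp1r3c spread widely within each group and are highest in replicate 3 of both.

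In glycolysis itself, 3 of 8 genes were lower (Pklr, Gpi1 and Eno1), none was higher, and the estimate was below 0 for all 8, with a median log2 fold change of -0.23. Of all 11580 genes tested, 3.19% were called lower and 5655 had an estimate below 0. Pklr (ENSMUSG00000041237.6, chr3:88940064-88950706, + strand), the liver and red cell pyruvate kinase that forms pyruvate and ATP at the last step, measured 644, 663 and 562 in controls and 451, 467 and 446 in L-RalyKO mice. The fall was 27.0% (log2 fold change -0.45 ± 0.07 SE, limma adjusted p = 0.0080) and all L-RalyKO mice lay below all controls. Of the 50-base words in Pklr exons, 20.5% also lie in the annotated exons of the overlapping gene Hcn3, whose values were 48.1, 45.4 and 47.7 in controls and 37.8, 32.9 and 32.6 in L-RalyKO mice. How the counting assigned such reads is not stated. Hcn3 was far below Pklr in every mouse.

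Gpi1 (ENSMUSG00000036427.4, chr7:34987141-35015308, - strand), the isomerase between glucose 6-phosphate and fructose 6-phosphate, had a small and very even change. Controls measured 205, 205 and 204 and L-RalyKO mice 173, 171 and 172, a log2 fold change of -0.25 ± 0.04 (SE; limma adjusted p = 0.0110). Eno1 (ENSMUSG00000063524.7, chr4:149610830-149622988, + strand), an enolase, had 658, 634 and 597 in controls and 525, 539 and 533 in L-RalyKO mice, a log2 fold change of -0.24 ± 0.05 (SE; limma adjusted p = 0.0333). Without control 1 the Eno1 change was -0.21 and did not pass (limma adjusted p = 0.0987), and it passed only in the full set and without control 3 when single mice were left out (limma adjusted p up to 0.117). In both genes over 20% of the 50-base words occur in other annotated genes, 23.0% for Gpi1 and 24.4% for Eno1, so their levels are less certain than those of Pck1, G6pc, Gys2, Khk and Pdk1, in which none do.

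Pfkl, the liver form of phosphofructokinase, measured 42.1, 41.8 and 50.6 in controls and 36.1, 38.1 and 38.3 in L-RalyKO mice. The groups did not overlap, and the log2 fold change of -0.25 did not pass the test (limma adjusted p = 0.0989). Without control 3 it was -0.16. Gapdh, the glyceraldehyde 3-phosphate dehydrogenase often taken as a reference gene, had 1748, 1601 and 1598 in controls and 1422, 1459 and 1364 in L-RalyKO mice (log2 fold change -0.22, limma adjusted p = 0.0726). Its ranges did not overlap either, and it passed with DESeq2 (adjusted p = 0.0120). For Tpi1, Pgk1 and Pgam1, which act in the middle and lower part of glycolysis, the log2 fold changes were -0.07, -0.08 and -0.12, with limma adjusted p-values between 0.228 and 0.473. Words shared with pseudogenes or other genes make up 50.1% of Gapdh, 53.8% of Pgk1 and 76.0% of Pgam1, and their values are accordingly uncertain.

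Of the genes at the entry of glucose and fructose, only Khk passed in the main limma test, on the values as deposited. Khk (ENSMUSG00000029162.9, chr5:31223929-31233619, + strand), ketohexokinase, phosphorylates fructose. It measured 469, 434 and 361 in controls and 336, 328 and 313 in L-RalyKO mice, with the lowest control close to the highest L-RalyKO mouse. The change was -0.36 ± 0.09 (log2, SE; limma adjusted p = 0.0489), and without control 1 it was -0.28 and did not pass (limma adjusted p = 0.128). Leaving out control 2 or any L-RalyKO mouse also ended the call (limma adjusted p = 0.111 to 0.128). Slc2a2, the GLUT2 glucose transporter of hepatocytes, had 480, 450 and 467 in controls and 409, 423 and 401 in L-RalyKO mice, which do not overlap (log2 fold change -0.18, limma adjusted p = 0.0657), and it passed with DESeq2 (adjusted p = 0.0397) and with total count scaling (limma adjusted p = 0.0495). Gckr, the nuclear inhibitor of glucokinase, had 133, 135 and 128 against 126, 128 and 114, which overlap (log2 fold change -0.10, limma adjusted p = 0.312).

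The bifunctional enzymes that make and remove fructose 2,6-bisphosphate, the activator of phosphofructokinase, had estimates of opposite sign. With limma over all 6 mice, neither passed unless the mice were blocked by number. Pfkfb1, the form typical of liver, measured 27.5, 26.1 and 23.1 in controls and 33.5, 32.5 and 29.3 in L-RalyKO mice (log2 fold change 0.31, limma adjusted p = 0.0585), without overlap. On the recovered reads Pfkfb1 passed with edgeR (adjusted p = 0.0433) and DESeq2 (adjusted p = 0.0241). Pfkfb3, a form with high kinase activity, measured 74.7, 49.1 and 107 in controls and 27.4, 19.6 and 53.8 in L-RalyKO mice. Its log2 fold change of -1.23 was the largest in size of the 31 genes, but mouse 3 of each group was highest, L-RalyKO mouse 3 lay above control 2, and the adjusted p was 0.0833 (limma). Without L-RalyKO mouse 3 the change was -1.62 and passed (limma adjusted p = 0.0286). Per kilobase Pfkfb3 was above Pfkfb1 in all 3 controls (10.6, 6.98 and 15.2 against 6.85, 6.49 and 5.74). In L-RalyKO mice it was below Pfkfb1 in mice 1 and 2 (3.90 and 2.78 against 8.35 and 8.10) and close to it in mouse 3 (7.66 against 7.29).

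Among the genes of pyruvate use, Pdk1 was lower and the other 5 did not pass. Pdk1 (ENSMUSG00000006494.5, chr2:71711281-71741915, + strand), a kinase that switches off pyruvate dehydrogenase, had 167, 167 and 151 in controls and 133, 144 and 131 in L-RalyKO mice, a log2 fold change of -0.25 ± 0.06 (SE; limma adjusted p = 0.0459). Without control 1 it was -0.22 and did not pass (limma adjusted p = 0.139), and the call was also lost without control 2 or any L-RalyKO mouse (limma adjusted p = 0.0523 to 0.147). Pdk2, the most abundant of these kinases per length at 47.2 per kilobase in controls, had 150, 144 and 153 against 150, 160 and 136 (log2 fold change -0.01, limma adjusted p = 0.943). Pdk4, a kinase known to rise in fasting, was at a low level, with 5.31, 6.21 and 3.95 in controls and 6.69, 5.45 and 6.05 in L-RalyKO mice, which overlap (log2 fold change 0.21, limma adjusted p = 0.410). The Pdk4 estimate was 0.06 without control 3 and 0.34 without control 2.

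The pyruvate dehydrogenase subunits Pdha1 and Pdhb did not overlap between groups, with means of 170 and 133 in controls and 154 and 115 in L-RalyKO mice, and had log2 fold changes of -0.14 and -0.21 (limma adjusted p = 0.143 and 0.0799). Of the words of Pdha1, 12.6% also occur in other genes, nearly all of them in the overlapping Map3k15. Ldha, lactate dehydrogenase A, had 672, 542 and 650 in controls and 555, 540 and 568 in L-RalyKO mice (log2 fold change -0.16, limma adjusted p = 0.286), and these ranges overlap. The Ldha estimate was -0.10 without control 1 and -0.25 without control 2 (limma adjusted p = 0.0546).

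In glycogen metabolism Gys2 was higher and the other 5 genes did not pass with limma when the mice were not blocked by number. Gys2 (ENSMUSG00000030244.7, chr6:142371133-142421629, - strand) extends the glycogen chain. Controls measured 347, 347 and 349 and L-RalyKO mice 408, 393 and 447, a difference of 19.7% (log2 fold change 0.26 ± 0.06 SE, limma adjusted p = 0.0332). Controls were nearly identical and every L-RalyKO mouse lay above them. Without control 1 the change was 0.26 and did not pass (limma adjusted p = 0.0938). The call was lost as well without control 2, control 3, L-RalyKO 1 or L-RalyKO 3 (limma adjusted p = 0.0550 to 0.0904) and with total count scaling (limma adjusted p = 0.0610). Pygl, liver glycogen phosphorylase, which releases glucose 1-phosphate from the chain, had 739, 681 and 655 in controls and 602, 613 and 567 in L-RalyKO mice (log2 fold change -0.22, limma adjusted p = 0.0716), without overlap, and passed with DESeq2 (adjusted p = 0.0229).

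Ugp2, which makes the UDP-glucose used by the synthase, had a mean of 600 ± 21.0 in controls and 631 ± 8.34 in L-RalyKO mice (SD; log2 fold change 0.07, limma adjusted p = 0.437). Gbe1, the branching enzyme, had 186 ± 14.9 and 176 ± 1.73 (log2 fold change -0.07, limma adjusted p = 0.521), and its estimate was -0.01 without control 1. Ppp1r3b, which targets protein phosphatase 1 to glycogen, had 374, 306 and 377 in controls and 257, 271 and 356 in L-RalyKO mice (log2 fold change -0.26, limma adjusted p = 0.259), and the estimate was -0.17 without L-RalyKO 1 and -0.41 without L-RalyKO 3. Ppp1r3c, a targeting subunit of the same kind, varied widely within groups, with 57.1, 37.8 and 140 in controls and 37.2, 30.8 and 62.8 in L-RalyKO mice (log2 fold change -0.68, limma adjusted p = 0.393). As with Pfkfb3, mouse 3 was the highest of its group, and the estimate was -0.16 without control 3 and -1.09 without control 2.

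**Figure D3:**
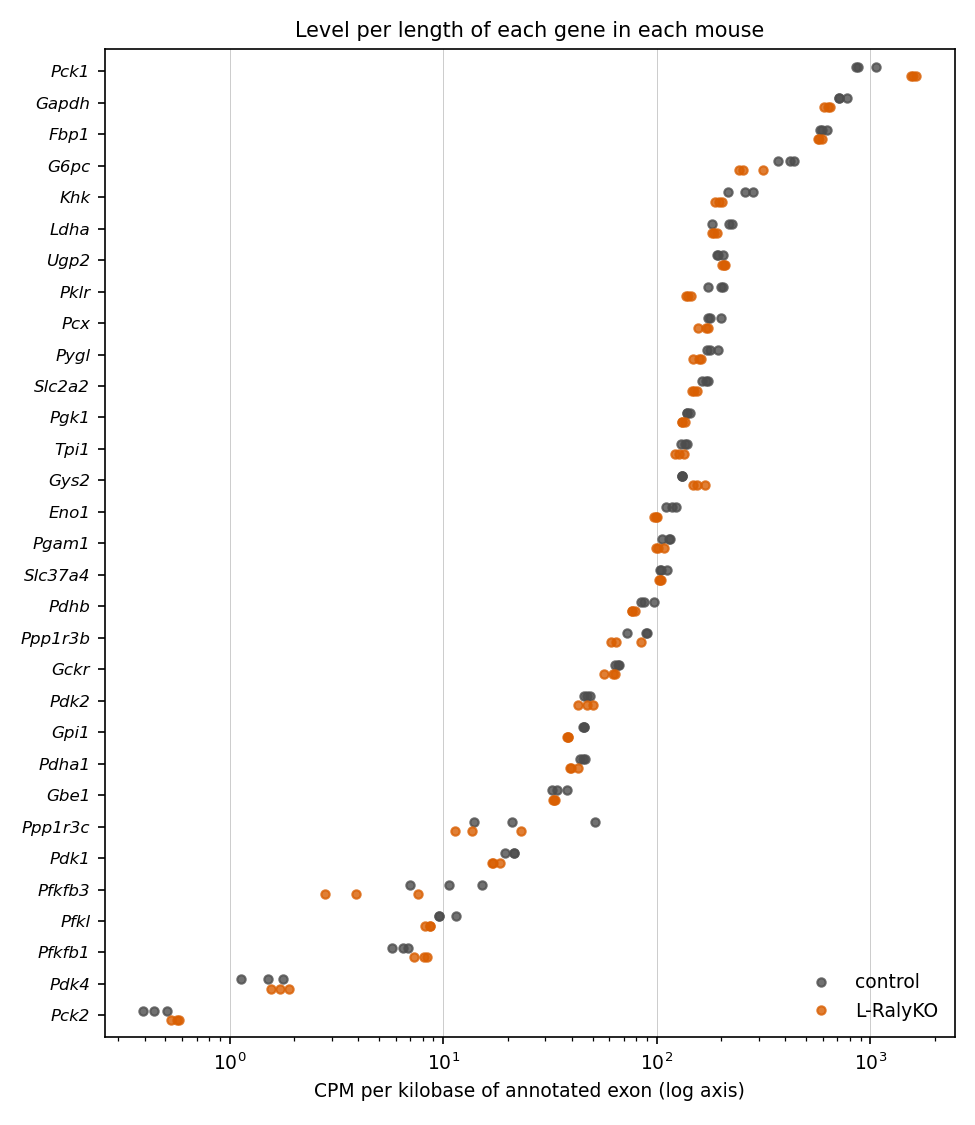
Level of each of the 31 genes in each mouse, in CPM per kilobase of annotated exon on a log axis, ordered by the control mean. Pck1 is at the top, with 929 in controls and 1589 in L-RalyKO mice, Pck2 is at the bottom with 0.449 and 0.559, and the L-RalyKO points of Pck1 stand clear of every other gene.

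Ratios between genes of opposing or linked steps do not depend on how libraries were scaled. Over the 7 ratios examined, a two-sided exact permutation test with 3 mice per group cannot give a p under 0.1. The ratio of Pklr to Pck1 was 0.215, 0.226 and 0.155 in controls and 0.0835, 0.0877 and 0.0794 in L-RalyKO mice, a log2 difference of -1.23 (exact p = 0.1). The ratio of Gys2 to Pygl was 0.469, 0.509 and 0.533 in controls and 0.679, 0.642 and 0.788 in L-RalyKO mice, a log2 difference of 0.48 (exact p = 0.1). In both ratios the groups did not overlap.

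The ratio of G6pc to Slc37a4 was 3.92, 4.04 and 3.50 in controls and 2.33, 2.41 and 3.05 in L-RalyKO mice (log2 difference -0.56, exact p = 0.1). Khk to Fbp1 differed by -0.30 and Pck1 to Pck2 by 0.46 on the log2 scale, also without overlap (exact p = 0.1 each). Pck2 had only 43 to 73 reads per mouse. Every ratio without overlap holds a gene that passed the limma test, so its separation is not independent of that call. The share of gene pairs without overlap was not computed, and 28.1% of single genes tested did not overlap. Pfkl to Fbp1 (-0.19) and Pdk4 to Pdha1 (0.40) overlapped between groups, each with an exact p of 0.2. Without control 3 the difference of Pfkl to Fbp1 was -0.08.

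**Figure D4:**
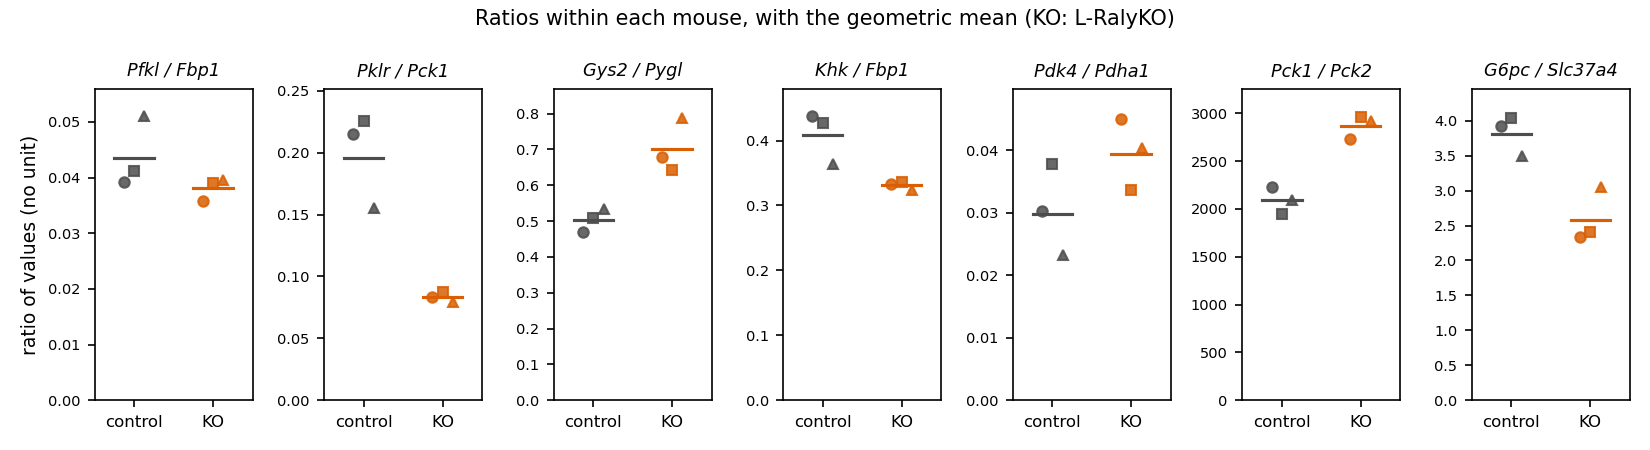
Ratio of the values of 7 gene pairs in each mouse (no unit, axes from 0), with the geometric mean of each group. Pklr to Pck1 and Gys2 to Pygl separate the groups, in opposite directions, and Pfkl to Fbp1 and Pdk4 to Pdha1 overlap.

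Other genes of these pathways were examined as lists, which were also chosen with earlier results of these data known. Of 27 other tested glycolysis and pyruvate genes, 2 rose and 2 fell (14.8% called, against 6.55% of all genes). Pdp2, a phosphatase that switches pyruvate dehydrogenase on, had 27.0, 34.5 and 23.6 in controls and 47.6, 44.7 and 46.7 in L-RalyKO mice (log2 fold change 0.70, limma adjusted p = 0.0117). Slc2a1, the GLUT1 glucose transporter, was low at 5.45, 6.94 and 9.16 and rose to 14.98, 14.7 and 11.9 (log2 fold change 0.88, limma adjusted p = 0.0160). Slc16a1, the monocarboxylate transporter of lactate and pyruvate, fell by 0.30 on the log2 scale (limma adjusted p = 0.0379). The median over these 27 genes was -0.07, and 2 of them passed without control 1.

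Of 16 genes of fructose, galactose and glycerol entry, 4 fell and none rose (25% called, against 6.55% of all genes, and 3.19% as lower), and the median was -0.06. Gpd1, which links dihydroxyacetone phosphate to glycerol 3-phosphate, had 698, 569 and 531 in controls and 392, 418 and 381 in L-RalyKO mice (log2 fold change -0.58, limma adjusted p = 0.0110). Its mitochondrial partner Gpd2 fell by 0.56 (limma adjusted p = 0.0120) and Galk1, galactokinase, by 0.32 (limma adjusted p = 0.0126). Dak, a kinase that acts after Khk in fructose breakdown, fell by 0.44 (limma adjusted p = 0.0171) and lies outside the naming rule, so that it was named after its values were seen. Without control 1, 4 of the 16 passed.

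In the pentose phosphate pathway 1 of 11 genes passed (9.09%), a share near the 6.55% of all genes. It was Rpia, ribose 5-phosphate isomerase, which was lower (log2 fold change -0.65, limma adjusted p = 0.0114). In the malate-aspartate shuttle and citrate cycle, 2 of 24 genes passed (8.33%), a share near the 6.55% of all genes. The dicarboxylate carrier Slc25a10 was lower (log2 fold change -0.43, limma adjusted p = 0.0372) and the aspartate-glutamate carrier Slc25a13 higher (0.18, limma adjusted p = 0.0474), and none of the 24 passed without control 1. Of 21 other glycogen genes, which include the debranching enzyme and the phosphorylase kinase subunits, none passed with limma, edgeR, DESeq2 or limma voom, and 1 had an unadjusted limma p under 0.05. Their median was -0.03.

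Among 35 regulators of glucose genes, 2 rose and none fell, which is 5.71%, a share near the 6.55% of all genes tested. Foxa2, a forkhead factor of liver genes, had 13.3, 13.9 and 16.7 in controls and 33.0, 28.9 and 21.3 in L-RalyKO mice (log2 fold change 0.86, limma adjusted p = 0.0126). Hnf4a, a nuclear receptor that acts on many hepatocyte genes, had 520, 542 and 680 in controls and 900, 809 and 829 in L-RalyKO mice (log2 fold change 0.55, limma adjusted p = 0.0155). The groups did not overlap for either gene, but without control 1 none of the 35 passed.

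Since the study names fasting only beside its qPCR, genes known to respond to it were set beside these results. Of 18 genes known to rise with fasting or glucagon, 3 were higher and 1 lower (22.2% called, against 6.55% of all genes), with a median log2 fold change of -0.08. On the recovered reads edgeR called 2 of the 18 and DESeq2 called 6. Fkbp5, a glucocorticoid-responsive cochaperone, had 67.2, 53.1 and 119 in controls and 233, 194 and 216 in L-RalyKO mice (log2 fold change 1.495, limma adjusted p = 0.0105). Lpin1, a phosphatidate phosphatase and transcriptional cofactor, had 444, 314 and 655 in controls and 1344, 1002 and 1151 in L-RalyKO mice (log2 fold change 1.36, limma adjusted p = 0.0120). Sesn1, a stress-response gene, rose by 0.41 (limma adjusted p = 0.0099). Cyp4a14, a fatty acid hydroxylase named after its values were seen, was lower (log2 fold change -0.70, limma adjusted p = 0.0138). Without control 1, 4 of the 18 passed.

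Of 15 tested genes known to rise with feeding, insulin or carbohydrate, 6 were lower and none higher (40% called, against 6.55% of all genes, and 3.19% as lower), with a median of -0.25. Acly, which makes cytosolic acetyl-CoA from citrate, fell by 0.56 on the log2 scale (limma adjusted p = 0.0037), the fatty acid elongase Elovl6 by 0.62 (limma adjusted p = 0.0053) and Srebf1, which encodes SREBP1, by 0.65 (limma adjusted p = 0.0173). Without control 1, 2 of the 15 passed. The part of feeding state in the changes of Pck1, G6pc, Pklr and Gys2 was not tested.

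Summed Kupffer cell and macrophage markers were 160 to 239 in controls and 165 to 213 in L-RalyKO mice, endothelial markers 185 to 195 and 162 to 206, stellate cell and fibroblast markers 221 to 246 and 212 to 279, cholangiocyte markers 32.6 to 34.8 and 32.3 to 41.2, and erythroid markers 706 to 1182 and 686 to 1358. Each of these ranges overlapped, and no tested gene of these lists passed with limma, edgeR or limma voom over all 6 mice. With DESeq2, and with limma without control 1, 1 cholangiocyte marker passed, and 1 cholangiocyte and 1 stellate marker had an unadjusted limma p under 0.05. The cholangiocyte marker Sox9, named after its values were seen, was at 4.05, 2.81 and 2.46 in controls and 5.88, 4.70 and 4.29 in L-RalyKO mice, without overlap (limma adjusted p = 0.0774). The sums of lymphocyte markers (at most 2.66) and skeletal muscle markers (at most 0.491) were near 0, and of the exocrine pancreas markers Cpa1, Prss2 and Pnlip were at 0 in every mouse, and the 1 tested had no unadjusted limma p under 0.05 and did not pass with any tool. The 8 adipocyte markers summed to 42.5 to 90.1 in controls and 34.8 to 40.04 in L-RalyKO mice, with the top in control 1, and 1 of 4 tested, Cfd, was lower (limma adjusted p = 0.0318), while edgeR and limma voom called none and DESeq2, or limma without control 1, called 1. Cidec did not overlap between the groups either (log2 fold change -1.41, limma adjusted p = 0.105), and 2 of the 4 had an unadjusted limma p under 0.05. Adipoq, Lep, Retn and Plin1 were each under 1 in every mouse. The part of adipocyte RNA in the results was not tested.

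Summed pericentral markers were 11103 to 12125 in controls and 12203 to 13328 in L-RalyKO mice, and summed periportal markers 4687 to 5513 and 5219 to 5868. The pericentral sums did not overlap between groups. Most of each was Cyp2e1, named after its values were seen, whose own ranges overlapped (limma adjusted p = 0.446). Of the 9 pericentral markers, 7 had an estimate above 0 and 2 below it, Glul and Rhbg (-0.14 and -0.07). Their median was 0.13, and 2 of the 9 did not overlap between groups, against 28.1% of all genes. Of the 8 periportal markers, 6 had an estimate above 0, with a median of 0.07. By position in the liver lobule, 1 of 9 pericentral markers passed (11.1%, against 6.55% of all genes). It was Cyp1a2, which was higher (log2 fold change 0.48, limma adjusted p = 0.0441), and none passed without control 1. None of 8 periportal markers passed (4 at an unadjusted limma p under 0.05, none with edgeR and limma voom, 1 with DESeq2). Pck1 and G6pc are known as periportal genes and Pklr as a pericentral one, and the part of this zonation in their changes was not tested. Of the 9 hepatocyte markers 1 passed (11.1%, against 6.55% of all genes), Hpd, which was higher (limma adjusted p = 0.0387). None of them passed without control 1. Over all mice, 4 of the 9 had an unadjusted limma p under 0.05, and DESeq2 called 4.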

How the data were processed

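Liver RNA-seq of 3 L-RalyKO and 3 control mice was analysed; ATAC-seq and ChIP-seq were not analysed here. According to the methods and the submitters' processing notes, stranded libraries were aligned with TopHat to mm9 and quantified as FPKM with Cufflinks 2.0.2. The values the authors deposited are instead a normalized signal, namely reads per gene divided by TMM-scaled library size and not by length. The counter and its use of strand are not given in the sources used here. All values (100%, tolerance 0.01 read) were whole multiples of 1 read, and a value of 3 reads lay between 0.0789 and 0.105. Both the 3 mice per group and the reads of a gene limit the precision.

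Groups were compared with limma 3.58.1 (R 4.3.3) with an intensity trend, taking log2(value + 1) of genes whose mean was at least 1, and Benjamini-Hochberg adjustment over all tested genes. The pseudocount makes the fold changes of low genes too small. Counting tests on the recovered reads (edgeR 4.0.16, DESeq2 1.42.0, limma voom), other scalings, filters and pseudocounts, a replicate block and leaving out each mouse were alternatives. The model fits were tested on simulated data, and no outcome of that is given here.

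The 31 genes, the other lists and the motifs were chosen with earlier results of these data known. All 31 were named, and from each other list at most the 3 genes with the smallest adjusted p under 0.05. Exceptions named after their values were seen are Dak, Cyp4a14 and the cell type markers. An item of these lists is not reported here. Coordinates, exon lengths and shared 50-base words come from GENCODE vM1 on NCBIM37, and promoters from RefSeq on GRCm38.p6. The mice of each group are numbered 1 to 3 in the labels, which do not say that a number marks a shared litter or day.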

Additional observations from a re-analysis of the deposited data

How the results depend on the processing

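Across the 16 alternatives Pck1, G6pc, Pklr and Gpi1 passed the test every time, while Eno1, Pdk1 and Gys2 lost it in 8 each and Khk in 10. Without an intensity trend 4 of the 31 genes passed, 1 higher and 3 lower, among 4.63% of all genes. With all genes of at least 1 read kept, 484 genes passed in all, and again 4 of the 31 (1 higher, 3 lower). With total count scaling 1 of the 31 was higher. DESeq2 called 12 of them among 1060 genes and edgeR's quasi-likelihood test 9 among 774. Leaving out each mouse in turn gave 332 to 813 genes in all and 4 to 7 of the 31, with 1 to 2 higher and 3 to 6 lower. Only Pdk2 changed sign, with log2 fold changes between -0.065 and 0.051 when a mouse was left out. Over all alternatives of the 31 genes, 449 values kept direction and side of the threshold, 34 lost the call, 10 gained it and 2 were reversed. The cause of these changes was not tested, beyond the fewer mice or added genes of a setting. The replicate block called 704 genes and 10 of the 31, among them Pfkfb3 (limma adjusted p = 0.0025), Pfkfb1 (limma adjusted p = 0.0277) and Ppp1r3c (limma adjusted p = 0.0493), and Eno1 lost its call (limma adjusted p = 0.0513). Correlations of deviations between same-numbered mice were 0.07, -0.02 and 0.02 for mice 1, 2 and 3. The value for mouse 1 was the highest of all pairs across the groups, while mouse 2 of L-RalyKO correlated best with control 3 (0.06). Such correlations run over all tested genes and cannot decide whether the numbers pair the mice for some genes. Of the other lists, the regulators had 5 calls with DESeq2, the fasting genes 2 with edgeR and 6 with DESeq2, the shuttle and citrate cycle genes 1 with limma voom, the hepatocyte markers 4 with DESeq2, and the pericentral markers 2 with DESeq2 and none with edgeR, while the adipocyte markers had none with edgeR or limma voom. Pck2 had the fewest reads of the 31 genes (43 to 73 per mouse).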
